A study of Mus musculus with 6 samples.

Results

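The genes described here are 32 genes of glycolysis and of the cell's response to low oxygen: glucose transporters, glycolytic enzymes, enzymes and transporters that handle pyruvate and lactate, and well-known targets of the hypoxia-inducible factors. They were taken by symbol from a fixed list, which was chosen with earlier results of these data known. Of the 32, 30 had at least 1 probe set named for that gene alone, 64 probe sets in all, out of 18194 such genes on the array. Gpi1 and Eno1 had no probe set listed under their names and were not analysed here. Gapdh was read from the array maker's 3 control probe sets for it, because the 3 other probe sets that name Gapdh name further genes as well. The samples were mouse embryos at embryonic day 11.5, from which the otic vesicle (the epithelial sac that becomes the inner ear) and the periotic mesenchyme around it were dissected. One group, Mest-KO, was a T-Cre conditional Tbx1 knockout, in which Cre under control of T, a gene of early mesoderm, acts on Tbx1, which encodes a T-box transcription factor. The control embryos were T-Cre conditional Tbx1 heterozygotes, so both groups carried Cre and a conditional loss of Tbx1, and no Cre-free or wild-type group was analysed here. Tbx1 outside the T-Cre lineage, as in otic epithelium, is not the target of this Cre. Each array held RNA from both ears of 3 embryos of 1 genotype, and there were 3 such pools per genotype. A pool mixes epithelium, mesenchyme, ganglion, vessel and blood cells, so fewer cells of a type and less RNA per cell cannot be told apart.

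Glycolysis splits glucose into pyruvate in the cytosol, and lactate dehydrogenase turns pyruvate into lactate where oxygen is short or where cells grow fast. When oxygen falls, the prolyl hydroxylases of the EGLN family no longer mark the alpha subunits of the hypoxia-inducible factors for destruction, and these factors bind DNA at a core of A or G followed by CGTG in the promoters of glycolytic, angiogenic and stress genes. Embryonic tissue develops at low oxygen and relies strongly on glycolysis.

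Markers of the tissue named in the label were read above background, which is a low bar. All 14 otic epithelium markers and all 12 periotic mesenchyme markers that had a probe set read above the highest of 27 probe sets for bacterial transcripts (intensity 11.2) on every array. All 8 head muscle and all 10 macrophage markers did so too, so this does not tell the labelled tissue from others. Log2 intensities of the 14171 genes tested correlated between 0.987 and 0.993 for any 2 arrays. Mean Tbx1 intensity was 512.8 ± 61.1 over the control pools and 502.8 ± 85.4 over the Mest-KO pools (SD, n = 3; two-sided exact permutation p = 0.9, where the smallest p for 3 against 3 is 0.1). This reading does not bear out the labels, and it cannot test them either, because otic epithelium also makes Tbx1 and it is not known here whether the probes lie in the deleted part. The ratio of the 3′ to the 5′ probe set of Gapdh, a sign of RNA integrity, was 1.34 to 1.47 for control pools and 1.37 to 1.57 for Mest-KO pools (exact permutation p = 0.5). Neighbouring tissue differed between pools: 11 tested hindbrain neural tube markers summed to 762 to 2798 in control, with control 2 the low one, and 425 to 946 in Mest-KO, and 5 pharyngeal endoderm markers to 2415 to 3087 and 1595 to 1841. The 3 Y-linked genes summed to 1378, 2577 and 1395 in control pools 1, 2 and 3 and to 2609, 2374 and 2289 in Mest-KO. The part of these tissue and Y-linked differences in the results was not tested. With the neural tube list mean as a covariate some estimates moved, Ddit4 from 0.29 to 0.14 and Adm from 0.38 to 0.76. The median of the members stayed at 0.04, with 20 of 30 above 0 instead of 23 (56.1% of all genes instead of 53.8%). When the fit was adjusted for the Y-linked genes instead, 25 of 30 members were above 0 (53.4% of all genes). Their median was then 0.10. Over the whole array limma called 12 genes higher (0.0847% of those tested) and 9 lower (0.0635%) at an adjusted p under 0.05.

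The 250 bases before the transcription start are shown for 5 of these genes from RefSeq (GRCm38.p6): Ddit4 and Eno2, whose groups of arrays did not overlap, and Ldha, Pgk1 and Bnip3, textbook hypoxia targets that differed little. Capitals mark ACGTG or GCGTG on either strand, the core that hypoxia-inducible factors recognise, and each sequence runs 5′ to 3′ on the gene's strand.
Ddit4 (chr10:59951771-59952020, minus strand): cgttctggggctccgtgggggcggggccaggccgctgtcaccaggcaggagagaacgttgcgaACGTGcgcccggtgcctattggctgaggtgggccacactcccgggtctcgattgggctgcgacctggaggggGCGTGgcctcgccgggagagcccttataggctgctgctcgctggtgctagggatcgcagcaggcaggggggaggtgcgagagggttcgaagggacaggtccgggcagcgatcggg
Eno2 (chr6:124769674-124769923, minus strand): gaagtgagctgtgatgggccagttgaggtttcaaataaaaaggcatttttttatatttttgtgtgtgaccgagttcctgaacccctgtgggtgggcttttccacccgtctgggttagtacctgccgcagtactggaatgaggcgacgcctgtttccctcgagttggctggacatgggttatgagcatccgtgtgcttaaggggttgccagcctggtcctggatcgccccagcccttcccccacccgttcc
Ldha (chr7:46845554-46845803, plus strand): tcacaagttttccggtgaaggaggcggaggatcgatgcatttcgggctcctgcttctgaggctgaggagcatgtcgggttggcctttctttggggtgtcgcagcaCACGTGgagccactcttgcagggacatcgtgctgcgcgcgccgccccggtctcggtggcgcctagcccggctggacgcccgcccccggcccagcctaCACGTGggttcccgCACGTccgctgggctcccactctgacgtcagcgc
Pgk1 (chrX:106186850-106187099, plus strand): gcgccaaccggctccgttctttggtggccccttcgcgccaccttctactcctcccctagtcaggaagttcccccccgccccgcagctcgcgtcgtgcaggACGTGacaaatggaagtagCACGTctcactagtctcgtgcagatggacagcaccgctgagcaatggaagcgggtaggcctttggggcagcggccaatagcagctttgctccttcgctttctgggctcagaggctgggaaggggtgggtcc
Bnip3 (chr7:138909507-138909756, minus strand): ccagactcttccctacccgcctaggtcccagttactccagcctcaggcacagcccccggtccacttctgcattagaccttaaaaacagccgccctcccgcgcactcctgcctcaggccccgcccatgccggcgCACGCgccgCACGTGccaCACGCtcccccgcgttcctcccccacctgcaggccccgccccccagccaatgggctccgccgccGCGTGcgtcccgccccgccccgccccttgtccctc
Ddit4 held 1 ACGTG and 1 GCGTG, Pgk1 held 2 separate ACGTG, and Eno2 held neither in this window. Bnip3 held 3 GCGTG and 2 ACGTG, and these 2 were both strands of 1 CACGTG. Ldha held 5 occurrences of ACGTG, 4 of them as both strands of the palindrome CACGTG, which is also the letters of an E-box. The window before another listed Ldha start, not shown (chr7:46846832-46847081), held 0 ACGTG and 1 GCGTG. Of 40 start sites listed for 29 of the 32 genes, 32 (80.0%) had ACGTG or GCGTG in these 250 bases, against 38.6% of all 32851 listed promoters, which include those of noncoding transcripts and were not matched for base composition. ACGTG was in 20 of the 40 windows and 16.6% of all windows, GCGTG in 22 of the 40 and 28.2%, and CACGTG, which contains ACGTG on both strands, in 3 of the 40 and 6.02%. The members had been picked as known targets, so this share describes the choice of genes. Ndrg1, Bhlhe40 and Slc2a3 were not in the promoter table.

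Against this background the comparison asked whether loss of Tbx1 from mesoderm was accompanied by a change in these genes. Of the 30 members none passed limma's test at an adjusted p under 0.05, with 0 higher and 0 lower. The smallest adjusted p was 0.271, for Eno2. At an unadjusted p under 0.05, 3 were higher in Mest-KO, namely Eno2, Ddit4 and Ndrg1, and 0 were lower, where 5.74% of all genes tested were higher and 3.24% lower. These 3 genes were also the ones whose groups did not overlap, all with Mest-KO higher, where 9.31% of all genes were so. The share of 10.0% of members is near that background.

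The differences were small. The median log2 difference, Mest-KO minus control, was 0.04 over the 30 members and 0.01 over all genes, and the members ran from -0.20 for Vegfa to 0.61 for Eno2. For 25 of the 30 (83.3%) the 95% interval lay within 1.5-fold either way, against 79.7% of all genes, and for all 30 it lay within 2-fold, against 97.5%. In these shares all genes were not matched to the members for intensity. Eno2 was the 1 member whose difference reached 0.58, about 1.5-fold, where 1.88% of all genes did. With the arrays as deposited 23 of 30 members were above 0, against 53.8% of all genes, whereas with arrays centred on their medians 13 of 30 were, against 36.9%, and their median became -0.02. That centring lowers all genes alike, by 0.06 at the median. With quantile normalization 22 of 30 members were above 0, with a median of 0.05, against 51% of all genes.

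**Figure D1:**
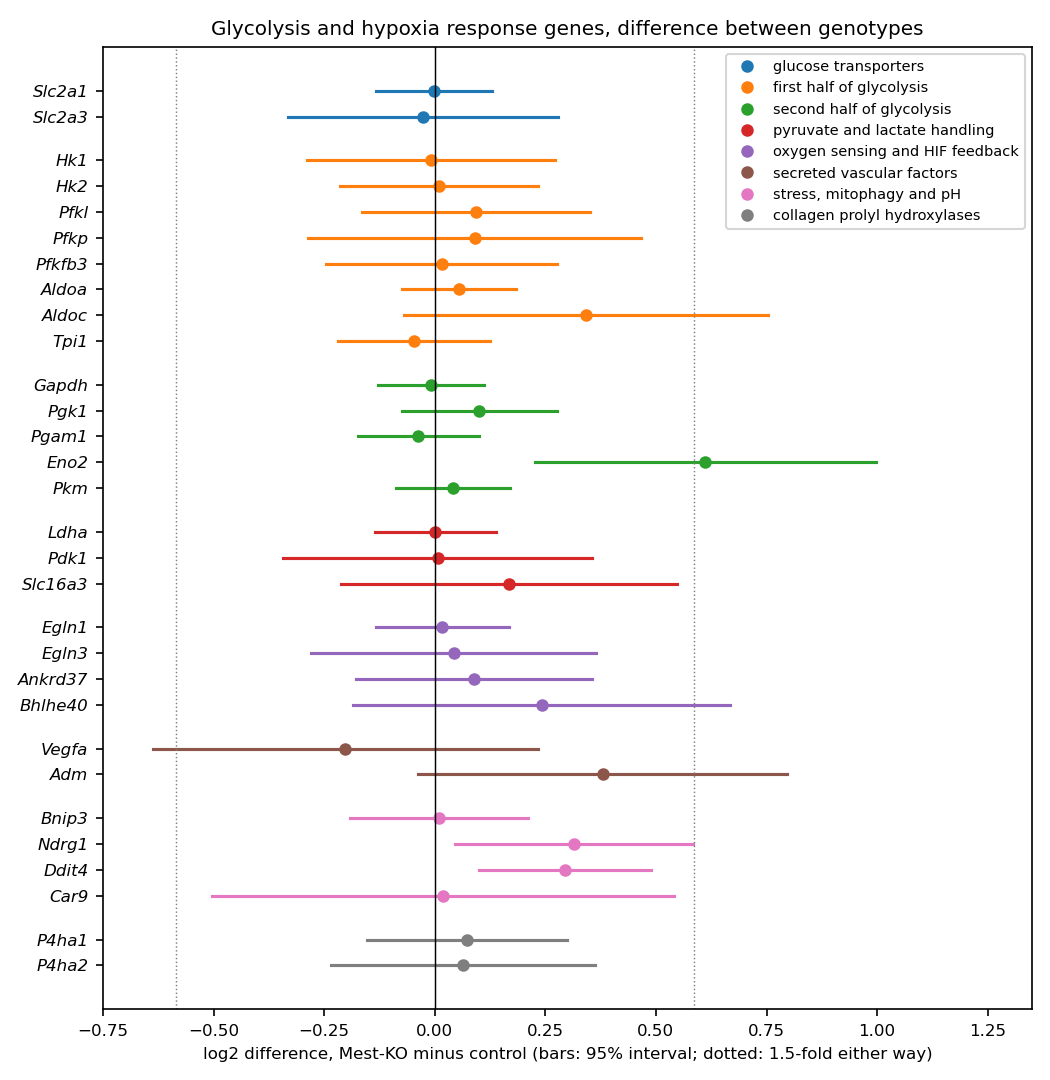
Log2 difference between Mest-KO and control for each of 30 genes, coloured by role, with points for the limma estimate and bars for the 95% interval from 3 arrays a group. The intervals of Eno2, Ndrg1 and Ddit4 lie above 0 and the others include 0.

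Transcripts of both glucose transporters had overlapping groups. Slc2a1, which encodes the widely made glucose transporter GLUT1, read 6366, 6001 and 6641 on the control arrays (pools 1, 2 and 3) and 6257, 6518 and 6204 on the Mest-KO arrays. Its groups overlapped almost fully, and the log2 difference was -0.001 ± 0.06 (SE; limma, adjusted p = 0.998), with a 95% interval from -0.13 to 0.13. Slc2a3, which encodes GLUT3, a high-affinity transporter prominent in neurons and early embryos, read 2404 to 2880 in control and 2116 to 3202 in Mest-KO, a difference of -0.03 ± 0.14. Its lowest and highest arrays were both Mest-KO pools.

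None of the 8 tested enzymes and regulators that prime and split the sugar passed the test. Hk1, a hexokinase that traps glucose as its phosphate, read 485.5, 491.3 and 475.8 on the control arrays and 563.4, 483.3 and 409.3 on the Mest-KO arrays (-0.01 ± 0.13). Its 3 control arrays lay close together, with Mest-KO 1 above and Mest-KO 3 below them. Hk2, the inducible hexokinase, differed by 0.01 ± 0.10. Pfkl (0.09 ± 0.12) and Pfkp (0.09 ± 0.17) encode the liver and platelet forms of phosphofructokinase, the main control point, and Pfkfb3 (0.02 ± 0.12) makes the sugar bisphosphate that activates it. Among the aldolases, which cut the sugar in 2, the widely made Aldoa differed by 0.06 ± 0.06. Aldoc, the brain form, read 146.5, 142.6 and 112.2 on the control arrays and 163.0, 137.8 and 228.9 on the Mest-KO arrays. Mest-KO 3 was the high array, the groups overlapped, and the difference of 0.34 ± 0.19 (limma, adjusted p = 0.629) became 0.16 ± 0.17 without Mest-KO 3. Tpi1, triose phosphate isomerase, differed by -0.05 ± 0.08.

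Of the 5 tested enzymes of the later steps, from triose phosphate to pyruvate, Eno2 alone had groups that did not overlap. Gapdh, which makes the first NADH and serves as a reference gene in many assays, read 9798 to 10520.3 on control arrays and 9757 to 10547 on Mest-KO arrays (-0.01 ± 0.05). Pgk1, phosphoglycerate kinase, differed by 0.10 ± 0.08, Pgam1, phosphoglycerate mutase, by -0.04 ± 0.06, and Pkm, pyruvate kinase, by 0.04 ± 0.06. The within-group SD on the log2 scale was 0.06 for Gapdh and for Pkm, against a median of 0.14 over all genes tested. That comparison was not matched for intensity, and both genes were bright.

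Eno2, which encodes neuron-specific enolase, had the largest difference of the set. It read 439.5, 332.8 and 385.2 on the control arrays and 773.4, 583.1 and 464.7 on the Mest-KO arrays. Every Mest-KO array was above every control array, but Mest-KO 3 and control 1 lay close together. The means were 385.8 ± 53.4 and 607.1 ± 155.7 (SD, n = 3), a log2 difference of 0.61 ± 0.17, or 1.53-fold, with a 95% interval from 0.23 to 1.00 (limma, unadjusted p = 0.0051, adjusted p = 0.271). Markers of neurons and cranial ganglia moved with it. All 11 of that list's tested genes were higher in Mest-KO, with a median difference of 0.27, and their summed intensity was 30969 to 33859 in control and 36957 to 38613 in Mest-KO. Relative to the 6 arrays the list mean was -0.23, -0.11 and -0.23 for the control pools and 0.26, 0.16 and 0.14 for the Mest-KO pools. The 3 Mest-KO pools had the same order as for Eno2, whereas control 2, the highest control for this list, was the lowest for Eno2. The part of neuron content in the Eno2 difference was not tested beyond a fit, added once the data had been seen, that had the list mean as a covariate, in which Eno2 differed by 0.20 ± 0.65. The list mean itself separates the genotypes, and the error grew accordingly.

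None of the 3 genes that handle pyruvate and lactate passed the test. Ldha, the lactate dehydrogenase subunit that favours lactate, read 8974, 9967 and 9019 on the control arrays and 9000.1, 9102 and 9879.6 on the Mest-KO arrays (0.002 ± 0.06). Control 2 and Mest-KO 3 were its high arrays, 1 from each genotype. Slc16a3, which exports lactate as MCT4, differed by 0.17 ± 0.17, with Mest-KO 2 at 467.5 below all controls and Mest-KO 1 at 774.5 above them. Pdk1, the kinase that keeps pyruvate out of the mitochondrion, had 4 probe sets that did not read alike. The brightest differed by 0.01 ± 0.17 and 2 others by -0.22 ± 0.21 and 0.15 ± 0.12. The dimmest read 167.2, 119.5 and 159.6 on the control arrays and 345.2, 169.2 and 322.1 on the Mest-KO arrays, without overlap (0.79 ± 0.26; limma over all probe sets, unadjusted p = 0.013, adjusted p = 0.483). Mest-KO 2 lay next to the controls there, and the other 3 probe sets of Pdk1 overlapped.

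All 4 oxygen sensing and feedback genes had overlapping groups. Egln1, the main hydroxylase that marks HIF alpha subunits, read 3116, 3096 and 2939 on the control arrays and 3031, 3001 and 3231 on the Mest-KO arrays. It differed by 0.02 ± 0.07 and had the smallest within-group SD of the set (0.05). Egln3, a hydroxylase gene that HIF itself induces, read 165.9 to 226.6 in control (0.04 ± 0.15). Its Mest-KO values, 187.6 to 218.8, lay inside the range of the controls. Ankrd37, a compact HIF target, differed by 0.09 ± 0.12, and Bhlhe40, a repressor of the clock and of differentiation that hypoxia induces, by 0.24 ± 0.19 at a low level of 45.9 to 89.5.

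The 2 secreted vascular factors differed in opposite directions, neither past the test. Vegfa, the main endothelial growth factor, read 296.6, 236.4 and 391.0 on the control arrays and 335.9, 237.1 and 221.1 on the Mest-KO arrays. The groups overlapped, and the difference was -0.20 ± 0.20 (limma, adjusted p = 0.822). A dimmer Vegfa probe set differed in the same direction, by -0.44 ± 0.21. Adm, encoding the vasodilator peptide adrenomedullin, read 543.0, 315.5 and 540.8 on the control arrays and 607.0, 528.2 and 654.3 on the Mest-KO arrays (0.38 ± 0.19; limma, adjusted p = 0.587). Control 2 was its low array, and without control 2 the difference was 0.13 ± 0.13.

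Stress genes held the other 2 members whose groups did not overlap. Ddit4, also called REDD1, encodes an inhibitor of mTORC1 that hypoxia, glucocorticoids and energy stress induce. It read 3840.4, 4727 and 4655 on the control arrays and 5627, 4976 and 5577 on the Mest-KO arrays. All Mest-KO arrays were above all control arrays, with control 2 and Mest-KO 2 nearest to each other. The means were 4407 ± 492.3 and 5393 ± 362.4 (SD, n = 3), a log2 difference of 0.29 ± 0.09, or 1.23-fold (limma, unadjusted p = 0.00674, adjusted p = 0.288). Among 12 tested immediate early and heat shock genes, whose transcripts respond to handling, the median difference was 0.10 and the summed intensity was 14936 to 16922 in control and 16786 to 17364 in Mest-KO. Their differences ran from -0.65 to 0.54, with 8 of 12 above 0. At an unadjusted p under 0.05 (limma), 2 were higher and 1 was lower. The list mean was -0.12, -0.08 and 0.13 in control pools 1, 2 and 3 and 0.03, 0.06 and -0.03 in Mest-KO. Control 3 was thus the highest array by that mean. The part of these genes in the Ddit4 difference was not tested. With the mean of hindbrain neural tube markers as a covariate the Ddit4 difference was 0.14 ± 0.12, and with that of the neuron list it was -0.07 ± 0.31, of the opposite sign.

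Ndrg1, a hypoxia-induced gene of differentiation that Schwann cells need to keep their myelin, read 479.1, 416.4 and 391.0 on the control arrays and 557.4, 572.9 and 480.2 on the Mest-KO arrays. The groups did not overlap, but Mest-KO 3 was barely above control 1. The difference was 0.31 ± 0.12, or 1.24-fold (limma, unadjusted p = 0.0257, adjusted p = 0.464). That probe set can bind related transcripts by the array's naming (suffix x_at). A dimmer one without that suffix read 108.3, 98.1 and 94.9 on the control arrays and 131.5, 120.2 and 129.1 on the Mest-KO arrays, also without overlap (0.30 ± 0.14). Another Ndrg1 probe set differed by 0.28 ± 0.16 without overlap. The other 2, with intensities of 18.4 to 32.8, differed by -0.02 ± 0.14 and -0.15 ± 0.18, and with the mean of all 5 the difference was 0.14 ± 0.10.

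The remaining hypoxia targets had overlapping groups. Bnip3, which starts the removal of mitochondria, differed by 0.01 ± 0.09. Car9, the cell-surface carbonic anhydrase that is a classic marker of hypoxic cells, was close to background at 28.0 to 61.7 (0.02 ± 0.24). P4ha1, a catalytic subunit of collagen prolyl hydroxylase, read 832.2, 882.7 and 957.8 on the control arrays and 914.4, 869.4 and 1032.5 on the Mest-KO arrays (0.07 ± 0.10). Only Mest-KO 3 lay above all controls. P4ha2, the other catalytic subunit gene measured, differed by 0.07 ± 0.14.

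**Figure D2:**
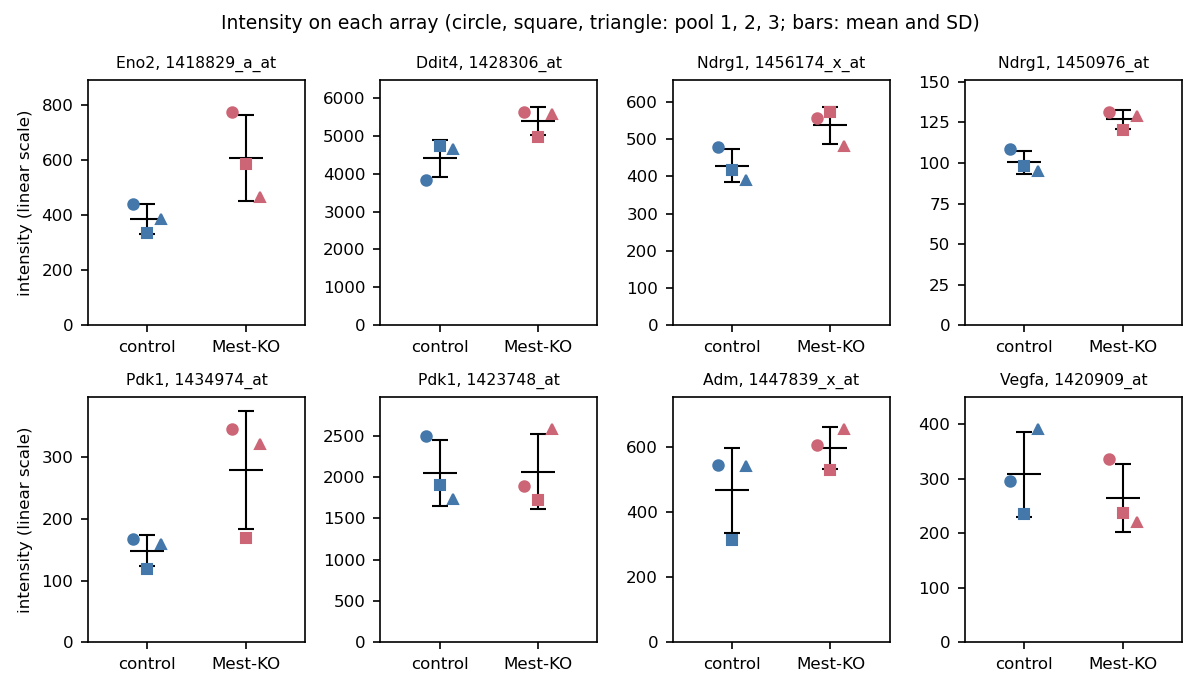
Linear intensity (y axis, from 0) on each of 3 control and 3 Mest-KO arrays for 8 probe sets, with symbols for pools 1, 2 and 3 and bars for the mean and SD. The groups do not overlap for Eno2, Ddit4, both Ndrg1 probe sets and the dimmest Pdk1 probe set, and overlap for the other 3.

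Of the 64 probe sets of these genes, 59 read above the bacterial controls on every array. In the fit over 34948 probe sets, 0 of the 64 passed an adjusted p under 0.05 (limma; 0% of all probe sets were called higher and 0.0143% lower), 4 were higher at an unadjusted p under 0.05 (4.91% of all probe sets) and 0 lower (3.34%). Without overlap, 6 were higher (7.83%) and 0 lower (5.81%). For 16 genes with more than 1 probe set above background throughout, 8 had probe sets of both signs. The differences of a gene's probe sets lay within 0.02 of each other for Slc2a1 and Slc2a3, 0.04 for Tpi1 and 0.06 for Gapdh. Those of Pdk1 were 1.01 apart, of Ndrg1 0.46, of Pgk1 0.32 and of Pfkp 0.32.

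**Figure D3:**
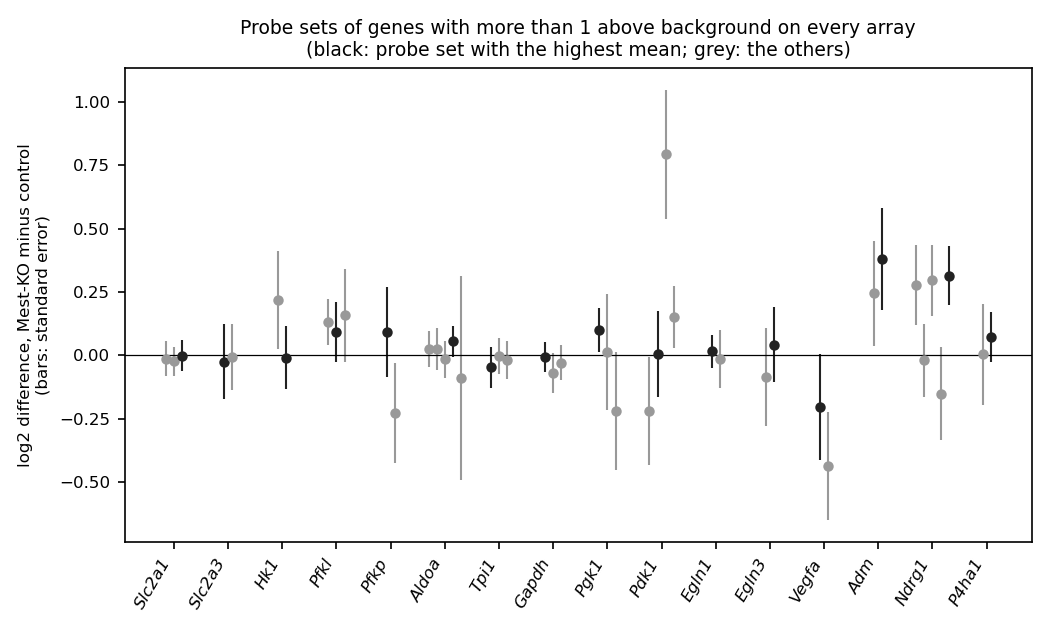
Log2 difference between Mest-KO and control with its standard error (y axis) for 45 probe sets of 16 genes, with the brightest probe set of each gene in black. Slc2a1, Slc2a3, Tpi1 and Gapdh cluster tightly, whereas Pdk1 and Ndrg1 are spread.

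The members shared a pattern across pools, which was picked out after its values were seen. Mest-KO 2 was the lowest of the 3 Mest-KO arrays for 23 of the 30 members, where it was the lowest for 29.8% of all genes tested. It was lowest for 6 of 8 genes of the early steps of glycolysis, 4 of 5 of the later steps, 4 of 4 oxygen sensing and feedback genes and both collagen hydroxylases. The mean of the 30 members relative to the 6 arrays was 0.01, -0.13 and -0.03 for the control pools and 0.12, -0.09 and 0.10 for the Mest-KO pools. Control 2 and Mest-KO 2 were thus the low arrays of their groups, although control 2 was lowest for only 14 of 30 members, against 37.9% of all genes.

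Tpi1 shows the pattern at a high level, with 5448, 4890.5 and 6015 in Mest-KO 1, 2 and 3, and Pfkl at an intermediate one, with 1799.9, 1313 and 1763. Without Mest-KO 2, 26 of 30 members were above 0, against 52.2% of all genes, and their median difference was 0.12 instead of 0.04, with 0 past an adjusted p of 0.05 and 6 at an unadjusted p under 0.05 (9.02% of all genes). Mest-KO 2 had been picked out because most members were lowest there. A rise on leaving it out was therefore fixed in advance, and nothing is drawn from it. Head muscle markers stood apart on the same arrays in the other direction. The mean of 8 such genes was 0.53 in control 2 and 0.49 in Mest-KO 2 and -0.44 to -0.04 on the other 4 arrays, and their summed intensity was 2009 and 1856 against 1002 to 1294. Head muscle was singled out from the marker lists after their values were seen, and other lists set these arrays apart too. The hindbrain neural tube mean was -0.13 in Mest-KO 2 against -0.78 and -0.99 in Mest-KO 1 and 3. That of macrophages was 0.20 against 0.03 and -0.01. The Y-linked mean was 0.43 in control 2 against -0.49 and -0.43 in control 1 and 3. The part of tissue makeup in the levels of the glycolysis genes was not tested.

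**Figure D4:**
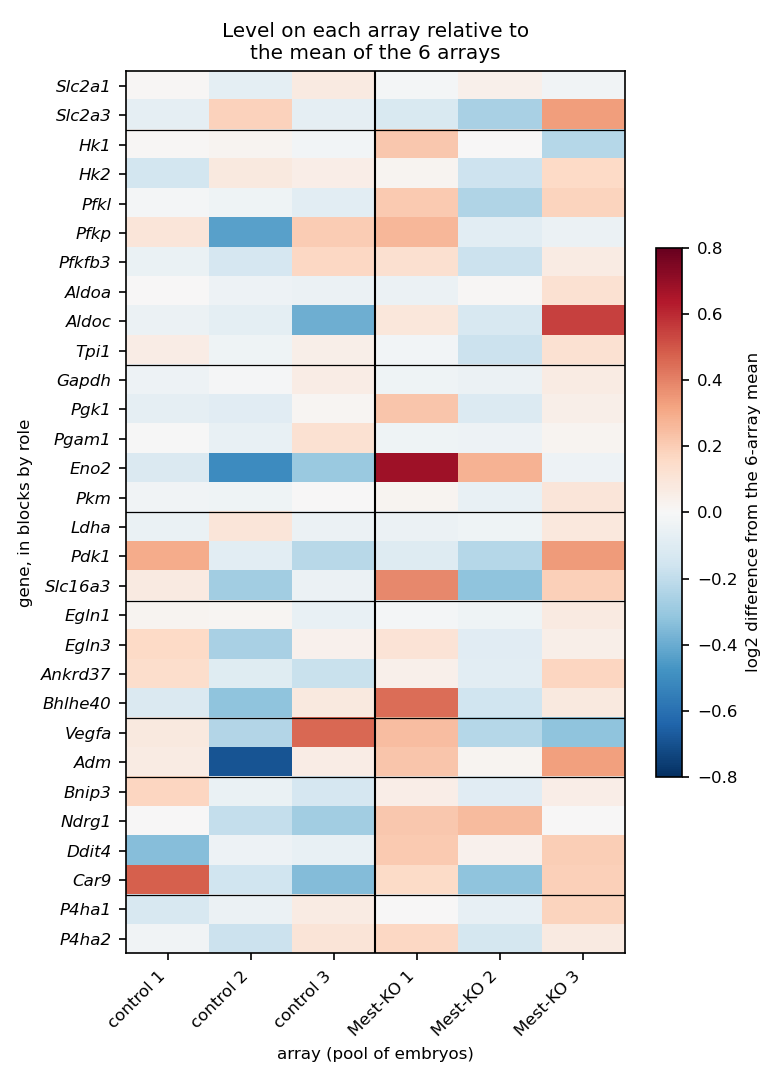
Heat map of the log2 level of 30 genes (rows, in blocks by role) on 6 arrays (columns), relative to each gene's 6-array mean. The columns of control 2 and Mest-KO 2 are mostly blue (low), and those of Mest-KO 1 and Mest-KO 3 mostly red (high), and the strongest colours are Eno2 on Mest-KO 1 and Adm on control 2.

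**Figure D5:**
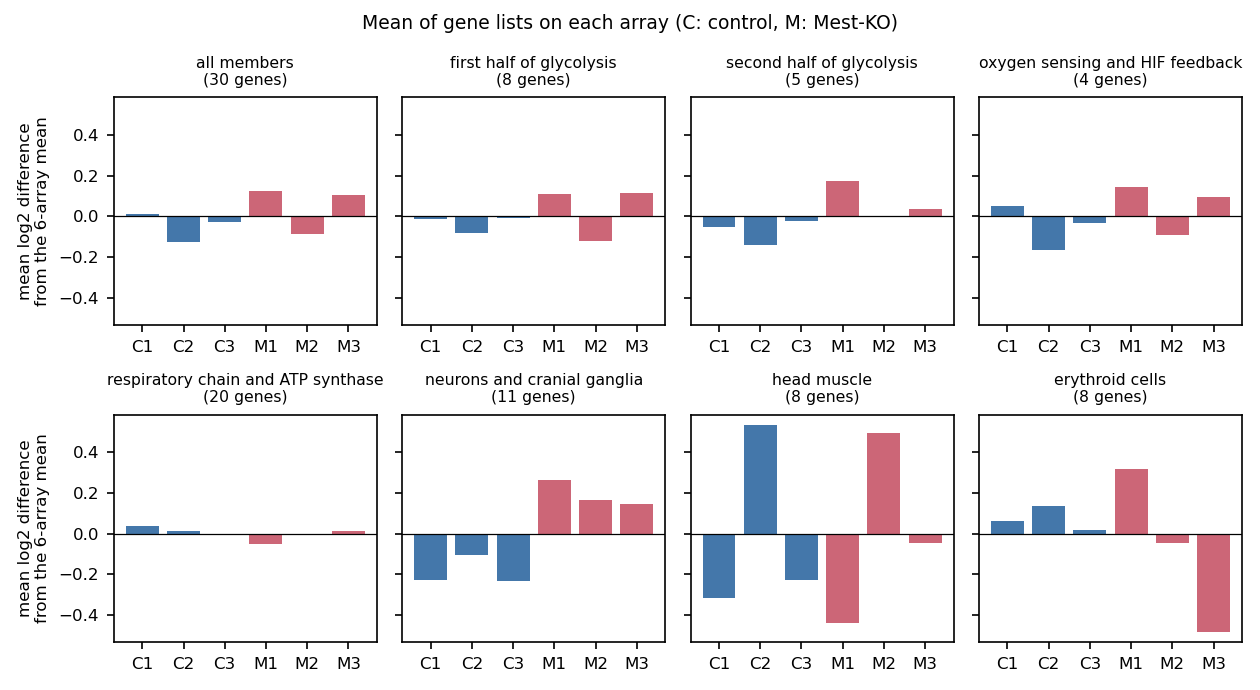
Mean log2 level of gene lists on each array (bars, relative to the 6-array mean) for the members, early and later steps of glycolysis, oxygen sensing genes, the respiratory chain and 3 marker lists. The members are lowest on control 2 (-0.13) and Mest-KO 2 (-0.09), where head muscle markers are highest.

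The rest of the pathway was counted from lists of 129 further genes, 114 of which were tested. Of these 0 passed limma's test in either direction, 3 had an unadjusted p under 0.05 (8.98% of all genes did), and 57 of 114 were above 0, against 53.8% of all genes. Without overlap, 4 of the 114 were higher, where 9.31% of all genes were, and 10 were lower, where 5.22% were. Among 18 other glycolysis isoenzymes and regulators, the muscle gluconeogenic enzyme gene Fbp2 read 46.0, 43.1 and 38.6 on the control arrays and 19.7, 21.5 and 18.9 on the Mest-KO arrays. Its groups were far apart relative to their spread, though dim and near background (-0.70 ± 0.16; limma, adjusted p = 0.177). Pgm1, which links glycogen to glycolysis, differed by 0.21 ± 0.08 without overlap (adjusted p = 0.426), and Bpgm, which makes bisphosphoglycerate in red cells, by 0.22 ± 0.11.

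The 9 HIF subunits and oxygen sensors had a median difference of 0.02. Hif3a, a HIF alpha subunit that can act as an inhibitor, differed by 0.24 ± 0.12, Epas1, which encodes HIF-2 alpha, by -0.18 ± 0.13, and Cited2, a HIF-induced inhibitor, by 0.08 ± 0.07. Other hypoxia targets, 33 genes, had a median of 0.04, and the 3 with the smallest p were Vldlr (-0.32 ± 0.15), the lipid droplet gene Hilpda (-0.18 ± 0.09) and the glycogen branching enzyme gene Gbe1 (0.27 ± 0.14). Hilpda did not pass the test, but its 3 Mest-KO arrays (618.9 to 669.5) were all below its controls (722.8 to 730.7).

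None of the mitochondrial genes passed the test. In pyruvate oxidation (11 genes, median -0.001) the pyruvate carrier gene Mpc1 differed by -0.14 ± 0.10, Dlat by 0.13 ± 0.10 and Pdk3 by -0.10 ± 0.09. In the citric acid cycle (17 genes, median -0.02) Sdhd differed by -0.26 ± 0.13, Dlst by 0.15 ± 0.09 and Sdha by 0.10 ± 0.07. Respiratory chain and ATP synthase genes had a median of -0.05, with 3 of 20 above 0, against 53.8% of all genes. In this list 3 of 20 genes were lower without overlap, where 5.22% of all genes were. These were the complex III genes Uqcrc2 (-0.13 ± 0.06) and Uqcrfs1 (-0.14 ± 0.07) and the ATP synthase gene Atp5c1 (-0.05 ± 0.05), and Cox4i2, a hypoxia-linked subunit of cytochrome oxidase, differed by 0.24 ± 0.16. In the pentose phosphate pathway (6 genes, median -0.08) Rpe, ribulose phosphate epimerase, read 1112, 943.0 and 1069 on the control arrays and 818.9, 864.4 and 769.2 on the Mest-KO arrays, without overlap (-0.34 ± 0.10; limma, adjusted p = 0.281), and Taldo1 (-0.11 ± 0.07) and Pgls (-0.12 ± 0.11) overlapped. Mest-KO 2 was the lowest Mest-KO array for 0 of 9 HIF subunits and sensors, 7 of 33 other hypoxia targets, 1 of 11 pyruvate oxidation genes, 5 of 17 citric acid cycle genes, 6 of 20 respiratory chain genes, 8 of 18 other glycolysis genes and 3 of 6 pentose phosphate genes. Among marker lists it was lowest for 8 of 14 otic epithelium and 6 of 11 neuron genes. No difference between these shares and 23 of the 30 members was tested.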

How the data were processed

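Gene expression was measured on 6 Affymetrix Mouse Genome 430 2.0 arrays, 3 control and 3 Mest-KO, from 300 ng of total RNA each, per the labels. The authors deposited linear intensities. The submitters' processing notes name Affymetrix Expression Console 1.1, and how probes were summarized and background was removed is not given here. With 2% trimmed at each end, every array had a mean of 500.002, which hides a shift common to most genes.

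Values were taken as log2(value + 16), which understates changes of dim genes. For each gene the probe set of highest mean log2 was taken, and genes above the 30th percentile were kept, 14171 of 18194. Of 45101 probe sets, 34948 had 1 gene symbol and 932 several. Of the 64 control probe sets only the 3 for Gapdh were used. The groups were compared in limma 3.58.1 (R 4.3.3) with eBayes and trend, two-sided, with Benjamini-Hochberg adjustment at 0.05 over all genes tested, and all 64 probe sets of the members in a separate fit over 34948. Errors are SE for log2 differences and SD for intensities. Per the labels the replicates are biological, and their number limits the precision.

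All 32 members are named. Arrays are given one by one for members with an unadjusted p under 0.05 or groups that did not overlap and for the leading members of each role, and of each further list the 3 genes with the smallest p are named. The members, lists and rules were chosen with earlier results of these data known. In simulated data for this comparison with the 14171 genes' means and spreads, 43 of 67 genes changed 1.5-fold, 63 of 67 changed 2-fold and 66 of 66 changed 4-fold were recovered, and 16 of 188 calls were false. The noise there was independent between genes. With 188 calls, against 12 higher and 9 lower in the data, an adjusted p under 0.05 was easier to reach in the simulation. These shares therefore overstate what this comparison could recover. The alternatives were other normalization and scaling, pseudocounts 1 and 64, other filters, the mean of all probe sets, eBayes without trend, array weights, a replicate block, marker lists as covariates and leaving out each array.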

Additional observations from a re-analysis of the deposited data

How the results depend on the processing

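Of the members tested, 30 in most alternatives and 28 with the filter at the 50th percentile, 0 passed in limma in each of the 20 alternatives (19 planned, and the neuron list covariate, which was added once the data had been seen), as did 0 of the other pathway genes. The smallest adjusted p of any member was 0.108, for Eno2 with the erythroid list mean as a covariate. At an unadjusted p under 0.05 there were 1 to 6 members over the alternatives, where the share of all genes ran from 2.31% to 10.6%. The median difference of the members ran from -0.02 (arrays centred on their medians, where all genes shifted by -0.06) to 0.13 (neuron list covariate). Leaving out a control pool gave 0.08, 0.04 and 0.05 (pools 1, 2 and 3), and leaving out a Mest-KO pool gave 0.02, 0.12 and 0.01. Only 8 of the 30 members kept their sign in every alternative in which they were tested (19 for Bhlhe40, 20 for the other 7), Eno2, Ndrg1 and Adm among them, while Ddit4 changed sign with the neuron list covariate.

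Over all genes 21 passed. The count was 76 with arrays centred on their medians, 2 without a filter, 6 with the mean of all probe sets, 1 with eBayes without trend, 4 with the neural tube covariate and 0 with the neuron covariate (328 at an unadjusted p under 0.05), and 2 to 84 when 1 array was left out (2, 84 and 6 for control pools 1, 2 and 3; 3, 9 and 22 for Mest-KO pools). With the replicate number as a block 9 genes and 0 members passed. Over all genes tested, same-numbered arrays did not deviate together (correlations -0.03, -0.11 and -0.15). These values cannot show whether same-numbered pools shared more than a number, which is not known here. The difference of Adm was 0.76 ± 0.25 with the neural tube covariate and 1.65 ± 0.57 with the neuron covariate. With 3 arrays a group, the median half-width of the members' 95% intervals was 0.26 on the log2 scale.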
